A study of Mus musculus with 7 samples.

Results

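Medium-chain acyl-CoA synthetases and glycine acyltransferases were followed through 7 kidney transcriptomes of cisplatin-treated mice. The group holds 6 genes, taken by their symbols in the deposited count table: Acsm1, Acsm2, Acsm3 and Acsm5, which encode medium-chain acyl-CoA synthetases, and Glyat and Keg1, which encode glycine acyltransferases or their relatives. They are 6 of the 54532 genes in the table, and all 6 had enough counts to be tested.

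All 7 libraries came from kidneys of male C57BL/6J mice aged 6 to 8 weeks that had received cisplatin, a platinum-based cancer drug toxic to the renal tubule, by tail vein injection at 20 mg/kg. In the Cis_Saline group (4 libraries, called saline 1 to 4) the label gives saline. In the Cis_DXZ group (3 libraries, called DXZ 1 to 3) the animals also received DXZ, as the labels write it without spelling it out. Its dose was 40 mg/kg by the same route, given 30 min ahead of cisplatin and again every 24 h over 3 days. Both groups received cisplatin, and no kidney without cisplatin was analysed here, so injury has no baseline in these data. The labels do not state whether each library is a separate animal, so p-values measure the spread between these samples, which may be technical. The comparison asks which transcripts differ between the DXZ and saline groups.

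As background, enzymes of the ACSM family sit in the mitochondrial matrix and join medium-chain fatty acids and aromatic acids such as benzoate to coenzyme A. Glycine N-acyltransferase then moves the acyl group from coenzyme A to glycine, which turns benzoate into hippurate. Liver and the proximal tubule of the kidney carry out this conjugation, and organic anion transporters of the proximal tubule secrete hippurate into the urine. The 4 synthetase genes lie together on chromosome 7 and the 2 acyltransferase genes on chromosome 19, all on the plus strand.

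Promoter sequences are shown for the genes on which the results turn: Acsm2, which had the largest log2 fold change of the 6 and has 2 start sites in RefSeq, its neighbour Acsm1, and Keg1, the more abundant acyltransferase transcript. Each runs 5′ to 3′ on the plus strand from 250 bases before to 50 bases after a RefSeq start site in GRCm38.p6. Capitals mark TATAAA in the first sequence and the closest stretch to the HNF4 motif in the last (1 mismatch).
Acsm2 upstream start, chr7:119554090-119554389: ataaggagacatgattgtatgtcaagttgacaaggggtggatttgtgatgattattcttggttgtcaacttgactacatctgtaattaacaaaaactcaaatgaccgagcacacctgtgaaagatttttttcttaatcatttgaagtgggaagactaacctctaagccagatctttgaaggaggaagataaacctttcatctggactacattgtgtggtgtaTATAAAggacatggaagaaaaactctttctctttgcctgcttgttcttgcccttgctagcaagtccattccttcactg
Acsm2 downstream start, chr7:119561458-119561757: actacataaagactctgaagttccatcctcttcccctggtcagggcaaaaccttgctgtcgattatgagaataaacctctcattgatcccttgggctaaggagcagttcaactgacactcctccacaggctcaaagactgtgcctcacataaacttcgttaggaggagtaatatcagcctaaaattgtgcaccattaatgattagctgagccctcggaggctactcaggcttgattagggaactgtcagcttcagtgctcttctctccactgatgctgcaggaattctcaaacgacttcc
Acsm1, chr7:119617562-119617861: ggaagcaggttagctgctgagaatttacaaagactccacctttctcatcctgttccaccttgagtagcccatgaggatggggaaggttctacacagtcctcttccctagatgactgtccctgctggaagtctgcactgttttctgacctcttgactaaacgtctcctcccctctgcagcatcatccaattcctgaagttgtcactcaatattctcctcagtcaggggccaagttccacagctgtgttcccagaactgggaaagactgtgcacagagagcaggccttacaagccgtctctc
Keg1, chr19:12695540-12695839: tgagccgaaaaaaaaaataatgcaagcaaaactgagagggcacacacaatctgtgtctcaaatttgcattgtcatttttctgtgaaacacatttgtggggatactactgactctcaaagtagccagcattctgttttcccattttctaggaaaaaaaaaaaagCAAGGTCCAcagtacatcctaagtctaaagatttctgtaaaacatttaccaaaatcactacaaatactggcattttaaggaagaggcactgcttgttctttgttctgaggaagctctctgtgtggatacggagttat

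HNF4 is a transcription factor of the proximal tubule, and PPAR/RXR binds many fatty acid oxidation genes. All 6 genes matched RefSeq, with 7 start sites between them. On both strands, the 13-base PPAR/RXR motif was in 0 of the 7 promoters, exactly or with 1 mismatch, and CAAAGTCCA (HNF4) was exactly in 0 of 7. Of all 32851 promoters of the same length, 0.554% held the PPAR/RXR motif with up to 1 mismatch and 0.475% held CAAAGTCCA. A mismatch was allowed for HNF4 after these results were seen. The HNF4 stretch with 1 mismatch begins at base 164 of the Keg1 window, as close a match as 8.47% of all promoters hold. TATAAA, searched on the plus strand after the sequences were seen, began 28 bases before the upstream Acsm2 start site and lay 40 to 21 bases before the start in 1 of the 7 promoters and in 1.99% of all. The upstream Acsm2 window was 38.3% G and C and the Keg1 window 37.3%, against a median of 52.7% over all promoters. The RefSeq start of Acsm1 lies 10.8 kb, and that of Acsm5 6.80 kb, inside the gene start given in the count table, and the promoters at those outer starts were not examined.

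Total counts ran from 16058157 to 18133736 per library, so each of the 6 genes had at least 229 reads in every library and counting error is small beside the spread between libraries. Saline 1 stood apart from the other saline libraries. It held the highest level of all 7 libraries for 6 of the 6 genes, while saline 3 was the lowest saline library for 5 of 6. Saline 1 also had the lowest Havcr1 (69.4 CPM, counts scaled to library size) and Krt20 (33.0 CPM), transcripts of injured tubule cells. The 6 genes together took 0.642%, 0.311%, 0.191% and 0.253% of all counts in saline 1 to 4, against 0.155%, 0.0939% and 0.104% in DXZ 1 to 3, so each DXZ library gave a smaller share than every saline library.

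Of the 6 genes, Acsm2 and Acsm5 fell in the DXZ group by edgeR's quasi-likelihood test (adjusted p below 0.05 over all 15351 genes tested) and 0 rose. Across all genes tested, 2.31% fell and 3.24% rose. At an unadjusted p under 0.05, 5 of the 6 were lower and 0 higher, against 11.4% and 14% of all genes tested. DESeq2 called 3, all lower, and called 5.63% of its genes lower and 6.86% higher. The DXZ libraries lay wholly below the saline libraries for 4 of the 6 genes, Acsm2, Acsm5, Keg1 and Glyat, against 11.3% of all genes tested. The median log2 fold change of the 6 genes was -1.32, and that of all genes tested was 0.01. In whole-kidney RNA, fewer proximal tubule cells and less RNA per cell cannot be told apart.

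**Figure D1:**
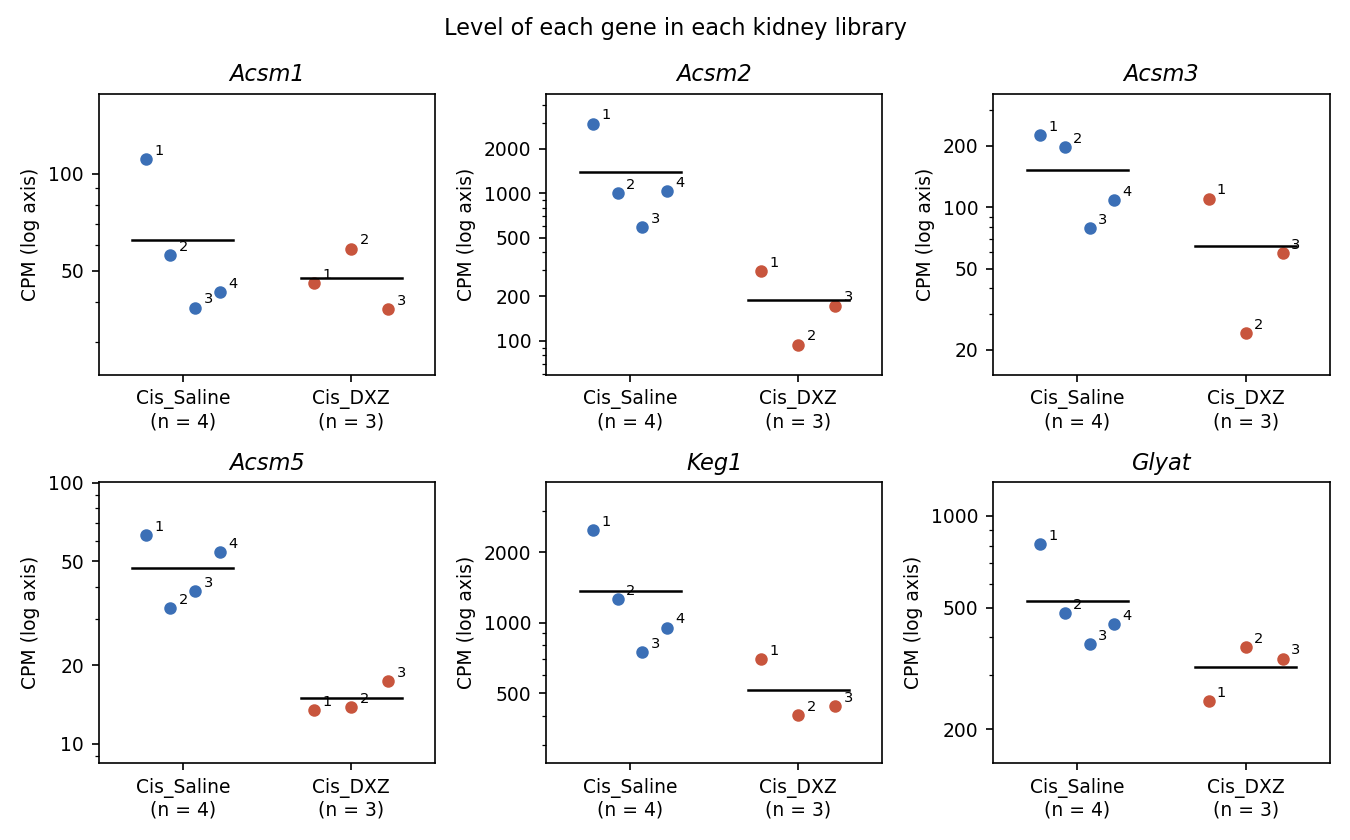
Level of each gene (CPM, log axis) in the 4 Cis_Saline and 3 Cis_DXZ libraries; numbers are replicate numbers and black lines are group means. The groups do not overlap for Acsm2, Acsm5, Keg1 and Glyat and overlap for Acsm1 and Acsm3, and saline 1 is the highest point of every panel.

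Acsm2 (ENSMUSG00000030945; chromosome 7, 119554340 to 119600690, GRCm38 coordinates, plus strand) is the kidney-rich member of the synthetase family. It was at 2970.2, 1005, 594 and 1037 CPM in saline 1 to 4 and at 297, 94.4 and 174 CPM in DXZ 1 to 3. Every DXZ library lay below the lowest saline library, and saline 1 was far above the other saline libraries. The saline mean of 1401 ± 1065 CPM (SD, n = 4) fell in the DXZ group to 188 ± 102 CPM (SD, n = 3), a log2 fold change of -2.90 (SE 0.64, adjusted p by edgeR = 0.0439). Ranked by mean CPM over all genes, Acsm2 was at place 41 in the saline group and at place 896 in the DXZ group. Without saline 1 the log2 fold change was -2.23 (adjusted p by edgeR = 0.0426). The call was lost without saline 2, saline 4, DXZ 2 or DXZ 3, at adjusted p-values by edgeR of 0.0708, 0.0999, 0.125 and 0.117.

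Acsm5 (ENSMUSG00000030972; chromosome 7, 119519463 to 119545551, plus strand) encodes another synthetase of the family and lies next to Acsm2. Its levels were 63.0, 33.1, 38.6 and 54.5 CPM in saline 1 to 4, against 13.5, 13.8 and 17.4 CPM in DXZ 1 to 3. The DXZ libraries lay close together and all below every saline library. The mean was 47.3 ± 13.9 CPM (SD, n = 4) in the saline group and fell in the DXZ group to 14.9 ± 2.18 CPM (SD, n = 3), a log2 fold change of -1.66 (SE 0.24, adjusted p by edgeR = 0.0208). The call was lost without saline 4 (adjusted p by edgeR = 0.0747) or DXZ 2 (0.0723), libraries without which 4 genes and 1 gene of the whole table were called. The transcripts of Acsm5 and of Pdilt, which overlaps it on the other strand, share 1.58% of the 50-base words of Acsm5, and Pdilt was at 5.95 and 5.09 CPM in the group means.

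Acsm3 (ENSMUSG00000030935; chromosome 7, 119760923 to 119787513, plus strand) was at 226, 198, 79.2 and 108 CPM in saline 1 to 4, against 110.2, 24.1 and 59.8 CPM in DXZ 1 to 3. DXZ 1 lay above saline 3 and saline 4, so the groups overlapped. The log2 fold change was -1.24 (SE 0.54, adjusted p by edgeR = 0.194) and did not pass. Of its 50-base words, 34.0% also occur in transcripts of Eri2, an exonuclease gene on the other strand whose span overlaps Acsm3 by 18.8 kb. Whether reads were counted by strand is not given in the sources used here, so the Acsm3 count is uncertain. Eri2 itself was at 6.74 CPM in the saline group and 4.97 CPM in the DXZ group (adjusted p by edgeR = 0.270).

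Acsm1 (ENSMUSG00000033533; chromosome 7, 119607026 to 119662515, plus strand) encodes a synthetase active on butyrate and other short and medium chains. It was at 111, 56.0, 38.4 and 42.9 CPM in saline 1 to 4 and at 45.7, 58.5 and 38.0 CPM in DXZ 1 to 3. Apart from saline 1, the values of both groups fell in 1 range. The log2 fold change was -0.39 (SE 0.36, adjusted p by edgeR = 0.548), and it was 0.05 without saline 1, so its sign rested on that library. An antisense gene, Gm19950, spans 35.8 kb of the Acsm1 locus and had higher counts than Acsm1, at 300 ± 43.7 CPM (SD, n = 4) in the saline group and 169 ± 61.7 CPM (SD, n = 3) in the DXZ group (log2 fold change -0.83, adjusted p by edgeR = 0.0846). The annotated transcripts of Acsm1 share 0 of their 2178 50-base words with any other gene, Gm19950 included. Without strand, reads of antisense partners cannot be told apart where their transcripts overlap. No such overlap of 50 bases or more was annotated for Acsm1.

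Keg1 (ENSMUSG00000024694; chromosome 19, 12695786 to 12719902, plus strand) is named for its expression in kidney and encodes a protein like glycine N-acyltransferase. It was at 2497, 1259, 747 and 954 CPM in saline 1 to 4 and at 702, 402 and 442 CPM in DXZ 1 to 3. All DXZ values were below all saline values, though DXZ 1 was near saline 3. The log2 fold change was -1.41 (SE 0.43, adjusted p by edgeR = 0.0906) and did not pass. DESeq2 gave an adjusted p of 0.00373 for Keg1, and with both saline 1 and DXZ 1 left out edgeR gave 0.0275. The transcripts of Keg1 and its antisense partner Gm15962 share 6.07% of the 50-base words of Keg1, and Gm15962 was at 5.99 CPM in the saline group and 2.19 CPM in the DXZ group.

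Glyat (ENSMUSG00000063683; chromosome 19, 12633308 to 12653911, plus strand) encodes glycine N-acyltransferase, the enzyme that makes hippurate. It was at 808, 481, 379 and 443 CPM in saline 1 to 4 and at 248, 371 and 341 CPM in DXZ 1 to 3. The groups did not overlap, but DXZ 2 lay just under saline 3. The log2 fold change was -0.72 (SE 0.28, adjusted p by edgeR = 0.149) and did not pass. No 50-base word was shared between the transcripts of any 2 of the 6 genes.

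**Figure D2:**
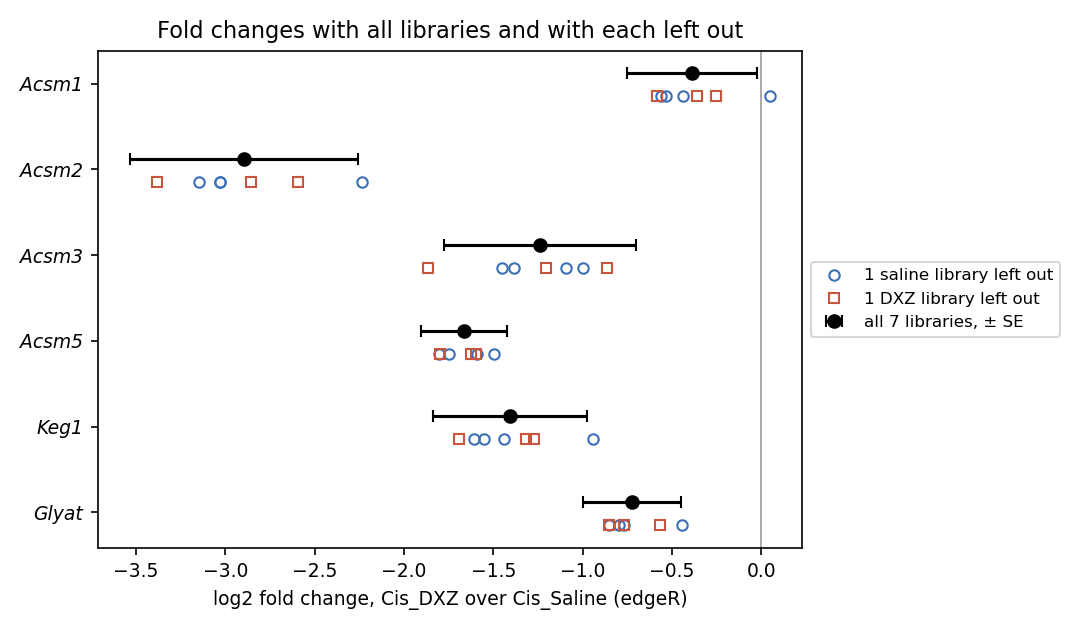
Log2 fold change of DXZ over saline for each gene. Black points with bars are the edgeR estimate ± SE from all 7 libraries, and open symbols are the estimates with 1 saline library (circles) or 1 DXZ library (squares) left out. Acsm2, Acsm3, Acsm5, Keg1 and Glyat stay below 0 in each of these fits, and Acsm1 reaches 0.05 without saline 1.

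Levels of different genes were set side by side per length, as FPKM (fragments per kilobase and library size). In the saline group the order of mean FPKM was Keg1 (239.7), Acsm2 (188), Glyat (109.9), Acsm3 (30.8), Acsm1 (28.3) and Acsm5 (12.4). In the DXZ group it was Keg1 (90.0), Glyat (66.5), Acsm2 (25.0), Acsm1 (21.6), Acsm3 (12.9) and Acsm5 (3.90). The saline ranges of Keg1 and Acsm2 overlap, as do those of Acsm2 and Glyat, but within each of the 4 saline libraries Keg1 was above Acsm2 and Acsm2 above Glyat. Acsm3 and Acsm1 overlapped too, with Acsm3 above Acsm1 in 2 of the 4, so their order was within the spread. In the DXZ group the ranges of Keg1 and Glyat, of Acsm2 and Acsm1, and of Acsm1 and Acsm3, overlap, and the order within each of these pairs was not the same in all 3 libraries. Orders between genes rest on the gene lengths used. In counts, Acsm2 was 1.19, 0.798, 0.795 and 1.09 times Keg1 in saline 1 to 4.

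By FPKM, Acsm2 and Glyat stood in a different order in the libraries of the 2 groups. The FPKM of Acsm2 over that of Glyat was 2.37, 1.35, 1.01 and 1.51 in saline 1 to 4, against 0.771, 0.164 and 0.328 in DXZ 1 to 3. By FPKM, Acsm2 was thus above Glyat in 4 of 4 saline libraries and below it in 3 of 3 DXZ libraries. In counts, Acsm2 was above Glyat in every saline library and also in DXZ 1. It was below Glyat in counts in DXZ 2 and DXZ 3. The order in DXZ 1 thus rests on the gene lengths used. The change in the log2 CPM difference was -2.10 (two-sided exact permutation p = 0.0286, adjusted p = 0.0714 over 15 pairs).

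Among the 4 synthetases, Acsm2 made up 77.9%, 64.5%, 64.6% and 71.4% of the summed FPKM in saline 1 to 4, against 46.1%, 26.4% and 40.7% in DXZ 1 to 3. Every DXZ library gave Acsm2 a smaller share than every saline library. Acsm1 made up 9.91% to 14.2% in the saline group and 24.1%, 55.8% and 30.3% in DXZ 1 to 3, and in DXZ 2 it had the highest FPKM of the 4. In counts Acsm2 was 1.61 times Acsm1 in DXZ 2. That order thus rests on the gene lengths used, 2181 bases for Acsm1 and 7424 for Acsm2. Within the acyltransferases, Glyat made up 27.7% to 37.6% of the summed Glyat and Keg1 FPKM in the saline group and 29.5%, 52.3% and 47.7% in DXZ 1 to 3, so those ranges overlapped.

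**Figure D3:**
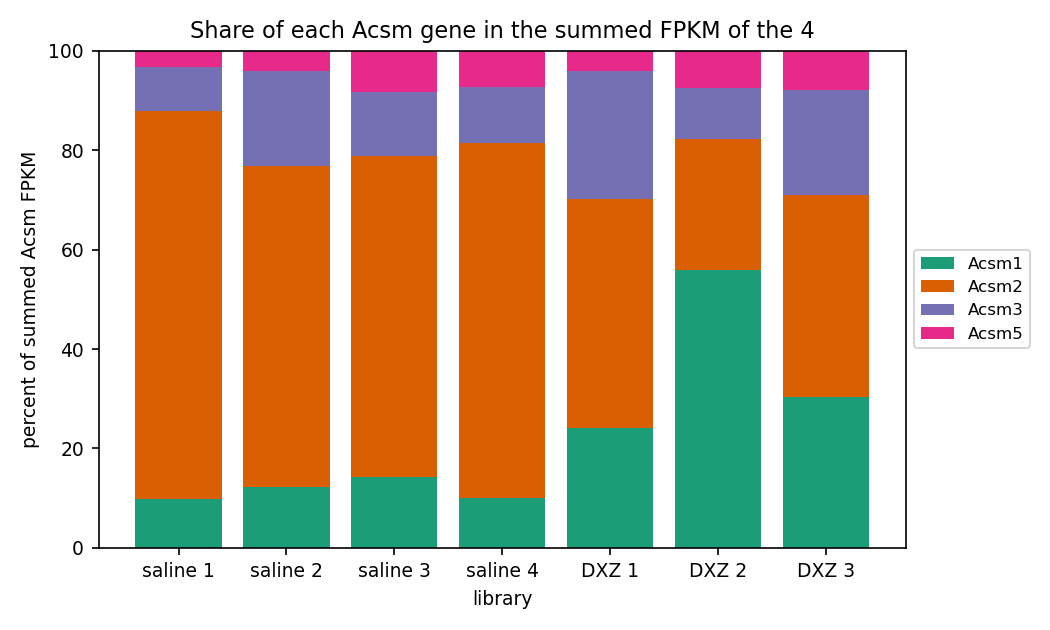
Share (percent) of each of the 4 Acsm genes in their summed FPKM in each library, as stacked bars from 0 to 100. Acsm2 takes 64.5% to 77.9% of the bar in the saline libraries and 26.4% to 46.1% in the DXZ libraries, and Acsm1 takes the larger share in DXZ 2.

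The amounts by which the 6 genes moved were compared in pairs. For each of the 15 pairs, the difference in log2 CPM within a library was compared between the groups over all 35 possible assignments of libraries to groups, where the smallest possible p is 0.0286. At that smallest p (adjusted p = 0.0714, exact permutation) were 6 pairs, and 0 passed 0.05 after adjustment. Acsm1 minus Acsm2 changed by 2.50, and in counts Acsm2 was 26.8, 17.95, 15.5 and 24.2 times Acsm1 in saline 1 to 4, against 6.50, 1.61 and 4.57 times in DXZ 1 to 3. Acsm1 minus Acsm5 changed by 1.34 and Acsm1 minus Keg1 by 1.02. Acsm2 minus Keg1 changed by -1.49 and Acsm5 minus Glyat by -0.94, and Acsm2 minus Glyat is given above. Acsm2 minus Acsm3 changed by -1.41, also with groups that did not overlap (exact permutation p = 0.0571, adjusted p = 0.122).

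Markers of the proximal tubule, the segment where these enzymes are found, were lower in the DXZ group. Of 18 such genes, 8 fell and 0 rose, all 18 had a log2 fold change below 0, and their median was -1.29. The count was 0 without saline 4 or DXZ 2, 2 without DXZ 3, 3 without saline 2 and 5 without saline 1. Their summed level was 21262 to 27785 CPM in the saline libraries and 13201 to 19500.1 CPM in the DXZ libraries. The log2 fold change was -2.88 for the phosphate transporter Slc34a1 and -1.64 for Lrp2, the endocytic receptor megalin (adjusted p by edgeR = 0.0373 and 0.0234). Of 10 injured tubule markers, 3 rose, Krt8, Krt18 and Krt20, and the median was 1.09. The count was 0 without saline 4 or DXZ 2, 2 without saline 3 or DXZ 3 and 5 without DXZ 1. The summed level of the 10 was 8454 to 24365 CPM in the saline libraries and 22820.1 to 37405 CPM in the DXZ libraries. Of the other cell types, 1 of 5 thick ascending limb markers (Egf) and 2 of 4 distal convoluted tubule markers (Slc12a3 and Pvalb) fell, and 1 of 4 principal cell markers (Fxyd4) and 1 of 4 macrophage markers (Cd68) rose. These calls too were all lost without saline 4 or DXZ 2. Among the fits with 1 library left out, Egf and Fxyd4 were called only without DXZ 1 or saline 3. Pvalb was called only without DXZ 1 or saline 1. Its level was low, at 0.573 to 2.44 CPM in the saline libraries and 0 to 0.113 CPM in the DXZ libraries. With all 7 libraries, 0 of 4 markers passed for intercalated cells, podocytes and endothelium and 0 of 6 for liver. This held by edgeR, DESeq2 and limma-voom alike. At an unadjusted p under 0.05 by edgeR these 4 lists had 1, 1, 0 and 1 genes. Without DXZ 1, however, 4 of 4 endothelial markers (Pecam1, Cdh5, Tek and Egfl7) fell by edgeR, with a median log2 fold change of -1.49. The macrophage markers Csf1r and C1qa also fell in that fit, where 782 of 15610 genes tested were lower. The part of the injured tubule markers and of those of the other cell types in the results on the 6 genes was not tested. Liver also expresses Glyat and Acsm genes. The 9 liver markers summed to 416 to 1809.6 CPM in the saline libraries and 948 to 1342 CPM in the DXZ libraries. Most of that sum was Fga, a fibrinogen chain, at 347 to 1779.8 CPM and 911 to 1318 CPM, and Ttr was at 18.04 to 53.1 and 15.2 to 29.3 CPM. The others were low or at 0: Cyp2c29 had 0 counts in all 7 libraries, Ahsg had 2 counts and Cps1 1 count in all, Alb was at 0.902 to 10.7 CPM, and Apoa1, Apoa2 and Serpina1c were at most at 4.35 CPM.

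For the proximal tubule, each gene was set against the mean log2 CPM of the 18 proximal tubule markers of its own library. Keg1 stayed near the markers: the difference changed by 0.17 (exact permutation p = 0.343, adjusted p = 0.514 over 6 genes), and its profile over the 7 libraries lay closest to theirs, with a root mean square difference of 0.191 log2 units. Acsm3 and Acsm5 changed against the markers by 0.10 and -0.15 (exact permutation p = 0.80 and 0.657). Both signs turned without DXZ 1, to -0.21 and 0.12. Acsm2 changed by -1.31 against the markers, from 1.05 to 2.07 log2 units above them in the saline libraries to between -0.28 and 0.54 in the DXZ libraries. Acsm1 changed by 1.19 in the other direction, from between -3.14 and -2.67 to between -2.16 and -0.97. For both, the groups did not overlap and the exact permutation p was 0.0286, the smallest possible, or 0.0857 adjusted over the 6 genes. Glyat changed by 0.78 (exact permutation p = 0.0571, adjusted p = 0.114).

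**Figure D4:**
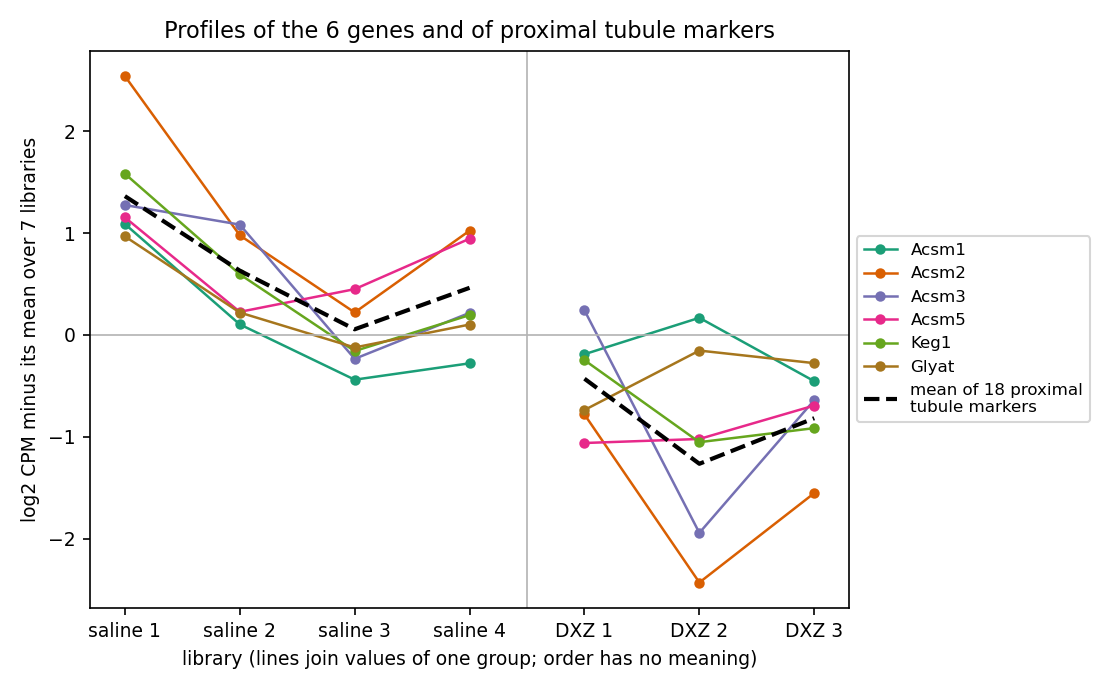
Centred log2 CPM (each gene minus its mean over the 7 libraries) of the 6 genes, with the mean of 18 proximal tubule markers as a dashed line; lines join the libraries of a group only to guide the eye. Keg1 runs close to the markers, Acsm2 spans a wider range, and Acsm1 and Glyat are flatter.

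The genes with the most similar profiles were found among 9625 genes at a mean of 10 CPM or more, by the root mean square difference of centred log2 CPM over the 7 libraries. For Acsm2 they were Ugt2b38, a glucuronosyltransferase (0.239), Miox, the inositol oxygenase of the proximal tubule (0.266), and Aspdh (0.289). For Acsm5 they were Rdh16f2 (0.181), Lrp2 (0.217) and Prodh2, a hydroxyproline dehydrogenase (0.236). For Acsm3 they were Slc51a, a bile acid and steroid transporter subunit (0.198), Akr1d1 (0.286) and Slc6a20b, an amino acid transporter (0.311). Keg1 was nearest to Oxct1, which activates ketone bodies to their coenzyme A esters (0.146), Macrod2 (0.147) and Afmid (0.149). Among the nearest to Glyat were Dnajc12 (0.140) and Slc25a42, a mitochondrial coenzyme A carrier (0.149). Acsm1 was nearest to Rgl1 (0.131), Olfm4 (0.148) and Tnfaip8 (0.155). No gene named here was among the nearest of more than 1 of the 6, and within the 6 the closest pair was Acsm1 and Glyat (0.318).

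The neighbours of these genes on the chromosomes were also examined. The chromosome 7 cluster spans 268 kb and reads Acsm5, Acsm2, Acsm1, Acsm4, Thumpd1 and Acsm3. The log2 fold changes of Acsm5, Acsm2, Acsm1 and Acsm3 in that order were -1.66, -2.90, -0.39 and -1.24. Acsm4 had 2 counts in all 7 libraries and was not tested. Thumpd1, an RNA-binding protein gene on the minus strand inside the cluster, was at 36.5 ± 2.99 CPM (SD, n = 4) in the saline group and 42.4 ± 1.14 CPM (SD, n = 3) in the DXZ group (log2 fold change 0.21, adjusted p by edgeR = 0.194). Pdilt and Eri2, which overlap Acsm5 and Acsm3 at the ends of the cluster, had log2 fold changes of -0.23 and -0.44 (adjusted p by edgeR = 0.726 and 0.270). Wholly outside the cluster, Umod, the thick ascending limb transcript for uromodulin, had a log2 fold change of -0.36 (adjusted p by edgeR = 0.640). Rexo5 had one of 0.00 (adjusted p by edgeR = 0.994).

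On chromosome 19, Glyat and Keg1 lie within 86.6 kb. Between them, the olfactory receptor gene Olfr1442 was at 0.595 CPM in the saline group and 1.56 CPM in the DXZ group (log2 fold change 1.38, adjusted p by edgeR = 0.169), and Olfr1443 had too few counts to test. On one side, Gm4952, a relative of Glyat, was at 1.78 and 0.918 CPM (log2 fold change -0.95, adjusted p by edgeR = 0.312). On the other, Zfp91, a zinc finger gene, had a log2 fold change of -0.04 (adjusted p by edgeR = 0.911).

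**Figure D5:**
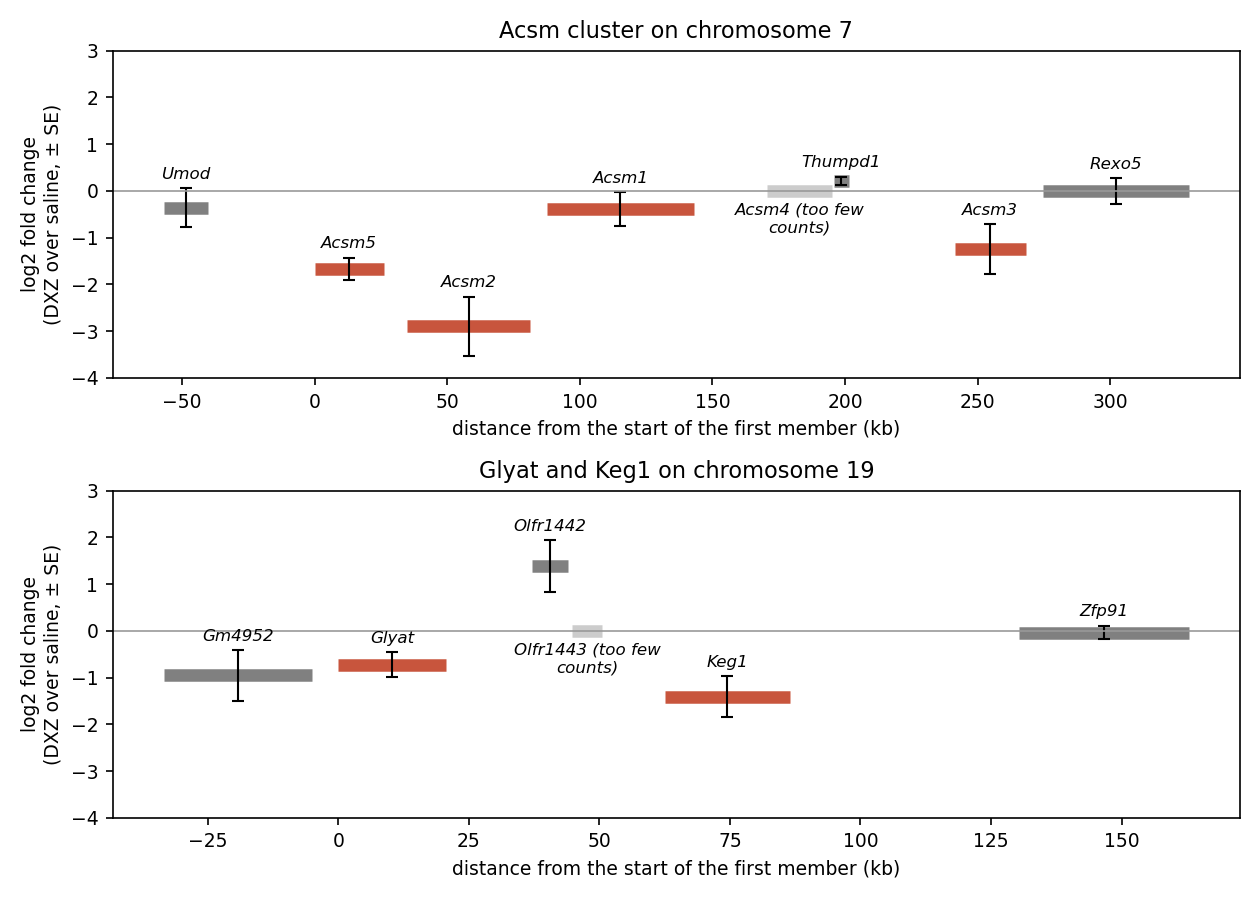
Log2 fold change (DXZ over saline, ± SE, edgeR) of the 6 genes (red) and their protein-coding neighbours (grey) against distance in kb from the start of Acsm5 (top) and Glyat (bottom); bars span each gene, and pale bars at 0 mark genes with too few counts to test. Acsm2 lies lowest at -2.90 and Acsm1, beside it, is at -0.39. Pdilt and Eri2, which overlap Acsm5 and Acsm3, are not drawn.

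The enzymes, substrates and transporters around these 6 genes were read from 8 gene lists. Of the 4 closest relatives 2 could be tested and 0 passed by edgeR, 1 being lower at an unadjusted p under 0.05 and 0 called by DESeq2 or limma-voom, which called 2.03% of all genes lower and 3.46% higher. Acsm4 and Glyatl3 had 2 and 3 counts in all, and Baat, which joins bile acids to glycine or taurine, was at 1.96 ± 0.317 CPM (SD, n = 4) and 0.949 ± 0.352 CPM (SD, n = 3), a log2 fold change of -1.04 that did not pass (adjusted p by edgeR = 0.106). Of 14 other acyl-CoA synthetases tested, 2 fell and 0 rose, with a median log2 fold change of -0.32 that turned to 0.01 without saline 1 and was -0.15 without DXZ 1. The count was 0 without saline 4, DXZ 2 or DXZ 3, 1 (Acss3) without saline 1 or saline 2, and 3 without saline 3. Acss3, a mitochondrial synthetase for short chains, fell by 1.89 on the log2 scale (SE 0.29, adjusted p by edgeR = 0.0215). Its level was low, at 3.04 ± 0.197 CPM (SD, n = 4) in the saline group and 0.814 ± 0.237 CPM (SD, n = 3) in the DXZ group. Slc27a2, a very-long-chain synthetase and fatty acid transporter that is also among the proximal tubule markers, fell by 0.84 (SE 0.16, adjusted p by edgeR = 0.0333).

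Of 16 tested genes that make or use glycine, 0 passed in either direction by edgeR, and the median log2 fold change was -0.48. At an unadjusted p under 0.05, 10 were lower and 0 higher, and 8 were called lower by DESeq2 and 1 by limma-voom. Gatm, which uses glycine in the first step of creatine synthesis, was at 237 ± 237 CPM (SD, n = 4) in the saline group and 32.2 ± 10.3 CPM (SD, n = 3) in the DXZ group, a log2 fold change of -2.88 (SE 0.70, adjusted p by edgeR = 0.0540). Its saline mean is raised by saline 1, at 591 CPM against 92.7 to 139 CPM in the other saline libraries. The highest DXZ library was at 43.5 CPM, so the groups did not overlap. Without saline 1, Gatm was called lower by edgeR. That was the only fit with 1 library left out that called a gene of this list. Gldc, of the glycine cleavage system, had a log2 fold change of -0.29 and Shmt1, which makes glycine from serine, of -0.55 (adjusted p by edgeR = 0.491 and 0.0928). Of 11 genes of coenzyme A synthesis and turnover 0 passed by edgeR, with a median of -0.24. At an unadjusted p under 0.05, 1 was lower and 1 higher, and DESeq2 and limma-voom each called 1 higher. Vnn1, the pantetheinase, was at 359 ± 96.1 and 346 ± 84.7 CPM.

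Of 19 genes for medium- and short-chain acyl-CoA oxidation, 1 fell and 0 rose, with a median log2 fold change of -0.21. The median was -0.08 without DXZ 1 and -0.39 without DXZ 3, and the call was kept only without saline 2 or DXZ 1 among the fits with 1 library left out. The gene that fell was Acadsb, the short and branched chain dehydrogenase (-0.64, SE 0.13, adjusted p by edgeR = 0.0355). Acadm, the medium-chain dehydrogenase that competes with glycine conjugation for medium-chain acyl-CoA, was at 717 ± 87.3 CPM (SD, n = 4) and 636 ± 169 CPM (SD, n = 3), a log2 fold change of -0.17 (SE 0.19, adjusted p by edgeR = 0.621) within the spread between libraries.

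Of 9 organic anion transport genes, 2 fell and 0 rose, with a median log2 fold change of -1.10 that was -0.65 without saline 1. The count was 0 without saline 4 or DXZ 2 and 1 (Slc17a1) without DXZ 3. Slc22a8, the basolateral organic anion transporter OAT3 that takes up hippurate, was at 122 to 619 CPM in the saline libraries and 27.3 to 49.8 CPM in the DXZ libraries, and fell by 3.10 on the log2 scale (SE 0.58, adjusted p by edgeR = 0.0306). Slc17a1, an apical phosphate and organic anion transporter, fell by 1.13 (SE 0.16, adjusted p by edgeR = 0.0204). Slc22a6, encoding OAT1, whose saline 1 level of 917 CPM stood above 420 to 492 CPM in the other saline libraries, had a log2 fold change of -0.98 and Slc22a12, the urate exchanger, of -1.10, and neither passed (adjusted p by edgeR = 0.114 and 0.124).

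Of 9 transcription factors of the proximal tubule, 9 had a log2 fold change below 0 and 0 passed by edgeR, with a median of -0.38. At an unadjusted p under 0.05, 4 were lower and 0 higher, and DESeq2 called 2 lower and limma-voom 0. Hnf4a was at 720 ± 166 CPM (SD, n = 4) in the saline group and 403.5 ± 73.3 CPM (SD, n = 3) in the DXZ group, a log2 fold change of -0.84 (adjusted p by edgeR = 0.0588). Ppara was at -0.25 (adjusted p by edgeR = 0.529). Of 7 kidney genes that depend on androgen, 0 passed by edgeR, 1 was lower at an unadjusted p under 0.05, and DESeq2 called 1 lower and limma-voom 0. Their log2 fold changes had a median of -1.02 that came to -0.03 without saline 1. The most abundant of them, Kap, had a log2 fold change of -1.20 (SE 0.76, adjusted p by edgeR = 0.364), and its saline libraries ran from 1729.7 to 18073.5 CPM.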

How the data were processed

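The deposited count table holds whole-number read counts per gene, with no normalization by the authors, for 4 Cis_Saline and 3 Cis_DXZ kidney libraries. The deposited FPKM values equal those counts scaled by gene length and a library constant. HISAT2, StringTie and mm9 are named without versions in the submitters' processing notes. The read counter, and whether it used strand, is not given in the sources used here. Of 54409 gene identifiers shared with GENCODE M21 (GRCm38), 98.3% had the same coordinates, so positions are taken as GRCm38.

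The count table was analysed in R 4.3.3 with edgeR 4.0.16 (filterByExpr, TMM, quasi-likelihood F test, Benjamini-Hochberg adjustment over 15351 genes, adjusted p below 0.05). SE was taken as the log2 fold change over the root of F. CPM are edgeR's counts scaled by TMM library size. Log2 CPM, with a prior count of 2, served the permutation and profile comparisons. FPKM served only to order genes by level and for alternatives. The test was tested on simulated data. Between replicates, chi-square per degree of freedom was 14.0 to 90.4, so each library counts as 1 sample. Total counts of 16058157 to 18133736 per library leave little counting error for these genes.

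The 6 genes and the 8 context and 10 marker lists were chosen with earlier results of these data known. Named were all 6 genes, list genes that passed (at most 6 a list), the most abundant gene of each list, 12 genes fixed by name, protein-coding neighbours, and the 3 most similar profiles per gene. Genes that overlap a member (Pdilt, Eri2, Gm19950, Gm15962), and the markers Slc34a1, Krt8, Krt18, Krt20, Havcr1, Slc7a13, Egf, Slc12a3, Pvalb, Fxyd4, Cd68 and those of liver, were added after their values were seen. Some named items are not reported here. Promoters came from RefSeq (GRCm38.p6). Alternatives were DESeq2 1.42.0, its size factors, limma-voom (limma 3.58.1), robust dispersion, 2 other filters, limma on log2 FPKM plus 1 or 0.1, a replicate block, and libraries left out singly or with saline 1 and DXZ 1 removed together.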

Additional observations from a re-analysis of the deposited data

Results flagged for a closer look

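Levels in the saline group were examined for 41 genes, the 6 members among them, for a library standing far from the rest, and 3 were found. Chance finds about 1 in 20 groups where the groups are independent. These 41 are not, so that rate cannot judge the 3 found. In each of the 3 the library was saline 1. Gatm was at 591 CPM there and at 92.7 to 139 CPM in the other saline libraries. Slc22a6 was at 917 CPM against 420 to 492 CPM. Slc7a13, an amino acid transporter of the late proximal tubule, was at 640 CPM against 37.3 to 132 CPM. The 41 genes share the same libraries, so these are not independent of each other. For Acsm2, the gap from saline 1 to the nearest saline library was 0.814 of the group's range, just under the critical value.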

How the results depend on the processing

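The number of genes called rested on single libraries. It was 853 with all, 1 to 1574 with 1 library left out, 1332 with saline 1 and DXZ 1 left out, 2011 by DESeq2 and 145 by limma on unfiltered log2(FPKM + 1). Of the 6 members 2 were called with all libraries, 0 to 2 with 1 library left out, 0 on unfiltered log2(FPKM + 1) and 1 with robust dispersion (Acsm5). With the replicate number as a block 85 genes and 0 members were called. The labels do not say what a replicate number shares. Deviations from the group mean correlated at 0.258, -0.088 and 0.226 between same-numbered libraries. Between differently numbered libraries they correlated at -0.459 to 0.428. The samples may thus share only a number. Over 18 alternatives the log2 fold change ran from -3.39 to -2.23 for Acsm2 (adjusted p 0.00223 to 0.125, 11 passed), from -1.80 to -1.42 for Acsm5 (1.91e-08 to 0.0747, 14 passed), from -1.69 to -0.94 for Keg1 (0.00373 to 0.232, 2 passed), from -1.86 to -0.86 for Acsm3 and from -0.85 to -0.29 for Glyat (0 passed for either). Acsm1, at -0.583 to 0.0502 with 1 library left out, turned to 0.0502 without saline 1 and to 0.0756 without saline 1 and DXZ 1. The median of other acyl-CoA synthetases turned to 0.000468 with limma-voom, 0.00755 without saline 1 (-0.376 to 0.00755 with 1 library left out) and 0.0301 without saline 1 and DXZ 1. With 1 library left out, the change against the proximal tubule markers ran from -0.207 (without DXZ 1) to 0.468 for Acsm3 and from -0.319 to 0.118 (without DXZ 1) for Acsm5. Acsm3 minus Acsm5 ran from -0.326 (without DXZ 1) to 0.787, Acsm3 minus Keg1 from -0.339 to 0.351 (without DXZ 2; 0.0786 without saline 2), and Acsm3 minus Glyat from -1.37 to 0.0144 (without DXZ 2). The cause was not tested.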
